A study of Homo sapiens with 9 samples.

Results

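ASNS, PCK2, GPT2, GOT1, GOT2, ALDH18A1, PYCR1, GLUL and BCAT1 encode enzymes that make or use asparagine, proline, glutamate and related amino acids, together with the mitochondrial enzyme that makes phosphoenolpyruvate. They were followed as 9 named genes through every probe set (the group of probes summarised as 1 transcript) annotated with their symbols, whatever their values. Of the 22011 probe sets on the arrays, 6 carried the symbol of 1 of these genes alone, for ASNS, PCK2, GOT1, GOT2, ALDH18A1 and GLUL. BCAT1 shared its probe set with the pseudogene DAD1P1, so that value is given as BCAT1/DAD1P1 and is not counted for the gene. GPT2 and PYCR1 were not analysed here.

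The samples were HEK293 cells, a human embryonic kidney line, grown in DMEM with serum and glutamine. All were transfected with siRNA and harvested after 48 hours. The siCTR group received a control siRNA, the siDBC1 group an siRNA against DBC1 (gene symbol CCAR2), and the siZNF326 group an siRNA against ZNF326, also called ZIRD. Each group had 3 arrays, from experiments that the design calls independent, and there was no untransfected group. DBC1 and ZNF326 form the DBIRD complex, and the study asked how their depletion alters expression and splicing. The labels give 1 reagent name per target and 1 cell line, so a response to the siRNA itself and to the loss of its target cannot be told apart. All cells carried the same medium, so the values describe cells supplied with glutamine.

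Asparagine synthetase, encoded by ASNS, transfers the amide nitrogen of glutamine to aspartate. The mitochondrial carboxykinase PCK2 converts oxaloacetate to phosphoenolpyruvate, while the aminotransferases GOT1 and GOT2 interconvert glutamate and aspartate in the cytosol and in mitochondria. ALDH18A1 begins proline synthesis from glutamate and PYCR1 ends it, GLUL makes glutamine, GPT2 makes alanine and BCAT1 moves amino groups from branched-chain amino acids. When amino acids are scarce, the transcription factor ATF4 binds elements made of joined C/EBP and ATF half-sites, of which that of ASNS is a well-studied case, and PCK2 is also known as an ATF4 target.

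The promoter sequences of ASNS and PCK2 are shown because these genes gave the calls below. They are the 250 bases before an annotated start in RefSeq on GRCh38.p14, read 5′ to 3′ on the strand of the gene. Letters are in lower case, with any match to the composite element core in capitals. ASNS has 2 annotated starts, and its stretch was picked because the window of that start held a match. The window of the other start, chr7:97872116-97872415, held 0 matches. The core searched was TGATGNAA on both strands, as a single motif. The ASNS stretch is chr7:97872409-97872658 on the minus strand and the PCK2 stretch is chr14:24094061-24094310 on the plus strand.
ASNS: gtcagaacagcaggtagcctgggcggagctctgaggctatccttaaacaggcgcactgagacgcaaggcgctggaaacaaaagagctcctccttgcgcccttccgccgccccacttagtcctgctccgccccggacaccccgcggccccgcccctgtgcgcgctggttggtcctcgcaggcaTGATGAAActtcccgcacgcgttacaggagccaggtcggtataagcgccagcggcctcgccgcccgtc
PCK2: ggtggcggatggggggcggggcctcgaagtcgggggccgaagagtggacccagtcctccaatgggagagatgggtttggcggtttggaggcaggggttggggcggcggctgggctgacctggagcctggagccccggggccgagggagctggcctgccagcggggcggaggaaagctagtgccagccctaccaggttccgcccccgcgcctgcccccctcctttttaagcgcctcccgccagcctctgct
ASNS held 1 match, TGATGAAA, at chr7:97872469-97872476, from -68 to -61 relative to the start site. The PCK2 stretch held 0 matches, which says only that these letters are not in this window. G and C made up 66.0% of the ASNS stretch and 71.6% of the PCK2 stretch.

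GOT1 and BCAT1 are shown because they were the other members with a match. Neither of their probe sets passed the test in the main fit. The BCAT1/DAD1P1 probe set still read lower than siCTR, by -0.63 in siDBC1 and -0.69 in siZNF326, as described below. Each line below gives the match with 16 bases on either side, from the minus strand at chr10:99430799-99430838 for GOT1 and chr12:24949126-24949165 for BCAT1.
GOT1: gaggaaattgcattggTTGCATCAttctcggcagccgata
BCAT1: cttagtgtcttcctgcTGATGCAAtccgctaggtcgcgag
The GOT1 match lay from -198 to -191 with the core on the strand opposite to the gene, so its capitals read TTGCATCA. The BCAT1 match, TGATGCAA, lay from -48 to -41 on the strand of the gene. RefSeq windows from 250 bases before to 50 after the start were found for 7 of the 9 genes, not for GPT2 and PYCR1. The core was present in 3 of those 7 genes, against 1217 of 27305 genes with a window (4.46%), and in 3 of their 13 windows, against 1270 of 35116 (3.62%). ALDH18A1, GLUL, GOT2 and PCK2 had 0 matches. A match is a description of the sequence, and binding was not measured.

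**Figure D1:**
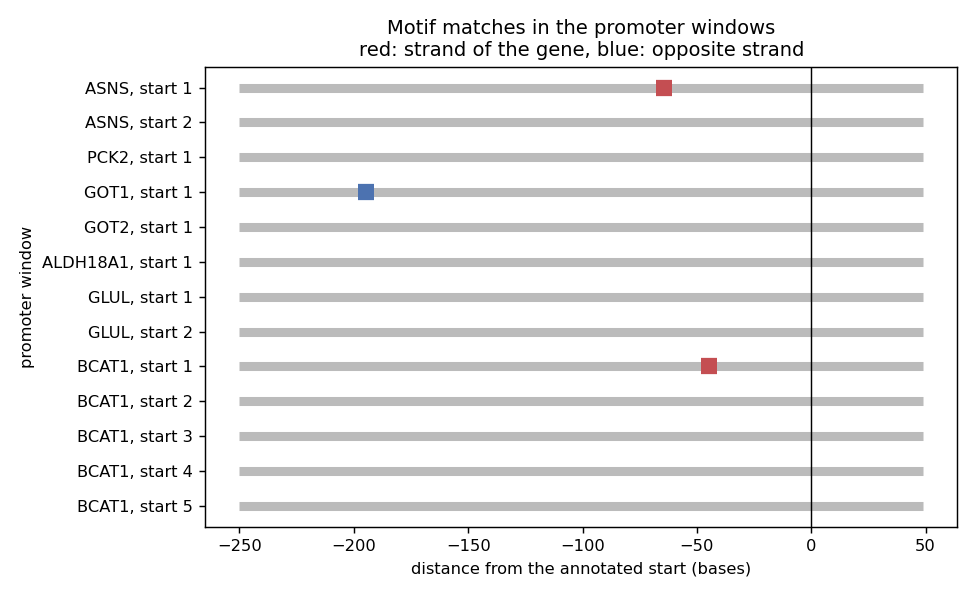
Matches to the composite element core in the 13 RefSeq promoter windows of 7 genes (1 line per annotated start), in bases from that start. Red marks are matches on the strand of the gene and the blue mark is on the opposite strand; ASNS, GOT1 and BCAT1 hold 1 match each.

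The array medians over all probe sets ran from 5.58 to 5.90 on the log2 scale, a range of 0.32. CCAR2 was lower on the siDBC1 arrays by 1.16 (limma, adjusted p = 0.0116, 3 arrays a group), with 6.50, 6.54 and 6.65 against 7.67, 7.67 and 7.84 in siCTR. That CCAR2 call was lost without siCTR replicate 2 (adjusted p = 0.0843), siDBC1 replicate 1 (0.122) or 2 (0.0544) or siZNF326 replicate 3 (0.0629), and with only the 2 groups compared (0.253). ZNF326 was not lower on the arrays labelled siZNF326, at 6.12, 5.56 and 5.81 against 5.25, 5.64 and 5.76 (limma, difference 0.28, adjusted p = 0.851), so siZNF326 stands below for that label, and every direction for the group rests on it. Of 8 markers of HEK293 cells, 7 were above the array median on all 9 arrays. Below the lower quartile on all 9 were 2 of 4 blood cell markers measured (PTPRC and CD3E), 2 of 6 fibroblast markers (DCN and POSTN) and 1 of 4 hepatocyte markers (ALB). Above the median on all 9 were 0, 1 (COL1A1) and 1 (CPS1) of these lists. Mean marker levels ran from 7.82 to 8.04 (siCTR), 7.81 to 8.22 (siDBC1) and 8.24 to 8.55 (siZNF326) for the HEK293 list. For the fibroblast list they ran from 4.18 to 4.20, 4.16 to 4.20 and 4.23 to 4.36, and their part in the results was not tested.

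ASNS and PCK2 were lower in both siRNA groups than in siCTR, ASNS by 2.06-fold and 2.36-fold and PCK2 by 2.27-fold and 2.89-fold in siDBC1 and siZNF326. Of these changes, ASNS passed the test in both groups and PCK2 in siZNF326. GLUL, which makes glutamine, lay slightly higher in both groups without passing, and GOT1, GOT2 and ALDH18A1 overlapped siCTR. In siDBC1, 1 of the 6 genes with their own probe set was called lower and 0 higher, where 0.0273% of all probe sets were called lower and 0.00909% higher. In siZNF326, 2 of 6 were called lower and 0 higher, beside 0.0591% and 0.0909%. The genes were chosen with earlier results of these data known, so the counts beside these shares are a description. The unadjusted p was under 0.05 for 2 lower and 1 higher in each of these comparisons, next to 2.55% lower and 3.63% higher of all probe sets in siDBC1 and 2.52% and 6.13% in siZNF326. Because both comparisons use the same 3 siCTR arrays, their values are set side by side and are not independent. The median change of the 6 genes was -0.03 in siDBC1 and 0.12 in siZNF326, next to 0.01 and 0.03 over all probe sets.

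**Figure D2:**
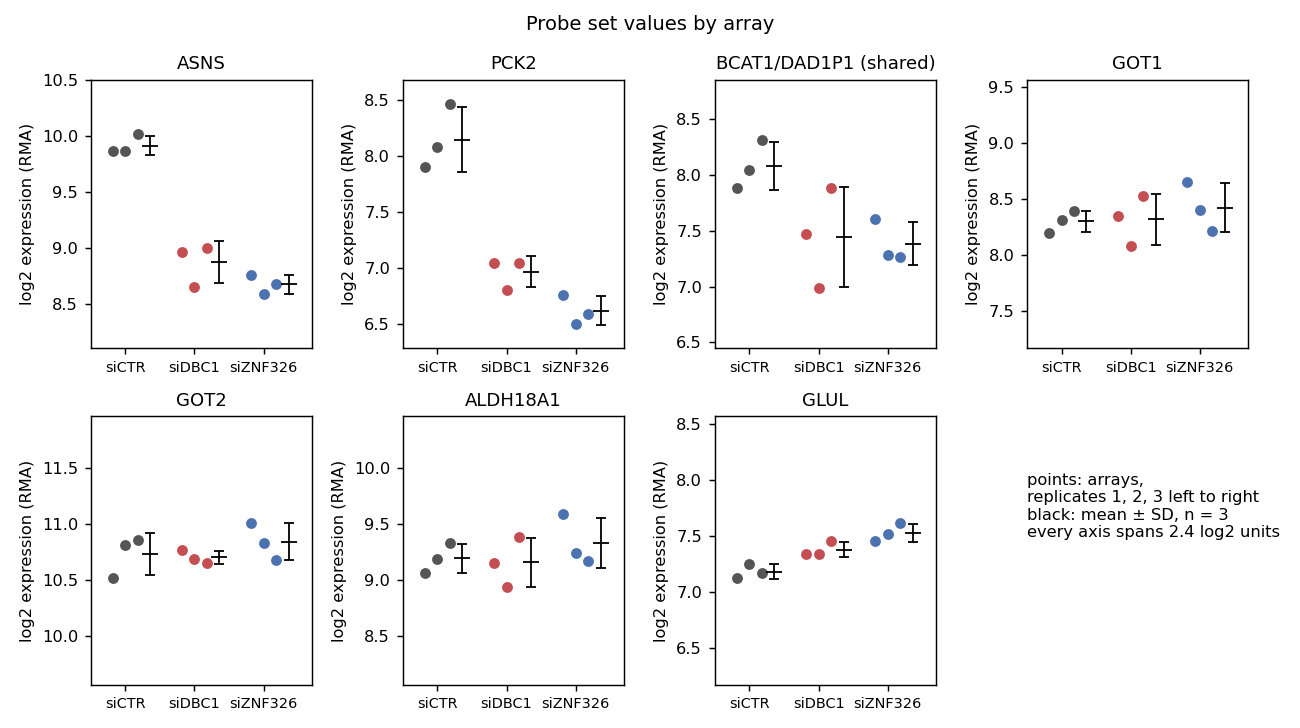
Log2 expression of the 6 genes with their own probe set and of the shared BCAT1/DAD1P1 probe set on each of the 9 arrays, with group means. Points are arrays; siDBC1 and siZNF326 points for ASNS and PCK2 all lie below the siCTR points, and those of GOT1, GOT2 and ALDH18A1 overlap them.

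ASNS is the enzyme that makes asparagine. Its log2 values were 9.86, 9.86 and 10.02 on the siCTR arrays, 8.96, 8.65 and 8.99 on the siDBC1 arrays and 8.76, 8.59 and 8.67 on the siZNF326 arrays. Every siCTR array was above every siDBC1 and siZNF326 array, as in 3.66% of all probe sets for siDBC1 and 5.27% for siZNF326, and the siDBC1 and siZNF326 arrays overlapped. ASNS fell by 1.04 ± 0.11 (SE) in siDBC1 (95% interval -1.30 to -0.79, limma, adjusted p = 0.0494, n = 3 against 3). In siZNF326 it fell by 1.24 ± 0.11 (95% interval -1.50 to -0.99, limma, adjusted p = 0.0200). It was the 49th and the 19th lowest change of the 22011 in these comparisons. On all 9 arrays ASNS lay above the upper quartile of the array. A lower array value cannot tell fewer cells expressing a gene from less RNA per cell. The siDBC1 call was lost when any 1 of the 9 arrays was left out, with adjusted p from 0.0763 (without siDBC1 replicate 2) to 0.303 (without siCTR replicate 2) and changes from -1.11 to -0.94. It was also lost with only the 2 groups compared (adjusted p = 0.454) and with an intensity trend (adjusted p = 0.0631). The siZNF326 call held without siDBC1 replicate 2 (adjusted p = 0.00991) or 3 (0.0345) and was lost on leaving out any of the other 7 arrays, with adjusted p from 0.0715 (without siZNF326 replicate 1) to 0.140 (without siCTR replicate 2) and changes from -1.28 to -1.19.

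PCK2 is the mitochondrial phosphoenolpyruvate carboxykinase. Its log2 values were 7.90, 8.08 and 8.47 in siCTR, 7.05, 6.81 and 7.05 in siDBC1 and 6.76, 6.50 and 6.59 in siZNF326. The groups lay in separate ranges, with siCTR highest and siZNF326 lowest. Of all probe sets, 3.66% were lower on all siDBC1 arrays and 5.27% on all siZNF326 arrays than on every siCTR array, and 4.24% on all siZNF326 arrays than on every siDBC1 array. In siZNF326 PCK2 fell by 1.53 ± 0.16 (SE, 95% interval -1.89 to -1.17, limma, adjusted p = 0.0216, n = 3 against 3), the 5th lowest change of all probe sets. In siDBC1 the difference was -1.18 ± 0.16 (95% interval -1.54 to -0.82), and the adjusted p of 0.0947 (limma) missed the threshold; it passed after quantile normalization (0.0139) and after centring each array on its median (0.0161). The siZNF326 call held without siDBC1 replicate 2 (adjusted p = 0.0237) or 3 (0.0436) and was lost on leaving out any of the other 7 arrays, with adjusted p from 0.0684 (without siCTR replicate 1) to 0.153 (without siCTR replicate 2) and changes from -1.66 to -1.37. It was also lost with only the 2 groups compared (adjusted p = 0.0709). PCK2 stood above the upper quartile of 5 arrays and above the median of all 9. PCK1, the cytosolic isozyme known from liver and kidney, was below the median of all 9 arrays, between 4.76 and 5.02. Its differences were -0.0030 in siDBC1 (95% interval -0.18 to 0.18) and 0.089 in siZNF326 (95% interval -0.089 to 0.27). The sign turned in siDBC1 under quantile normalization and in siZNF326 under array centring.

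**Figure D3:**
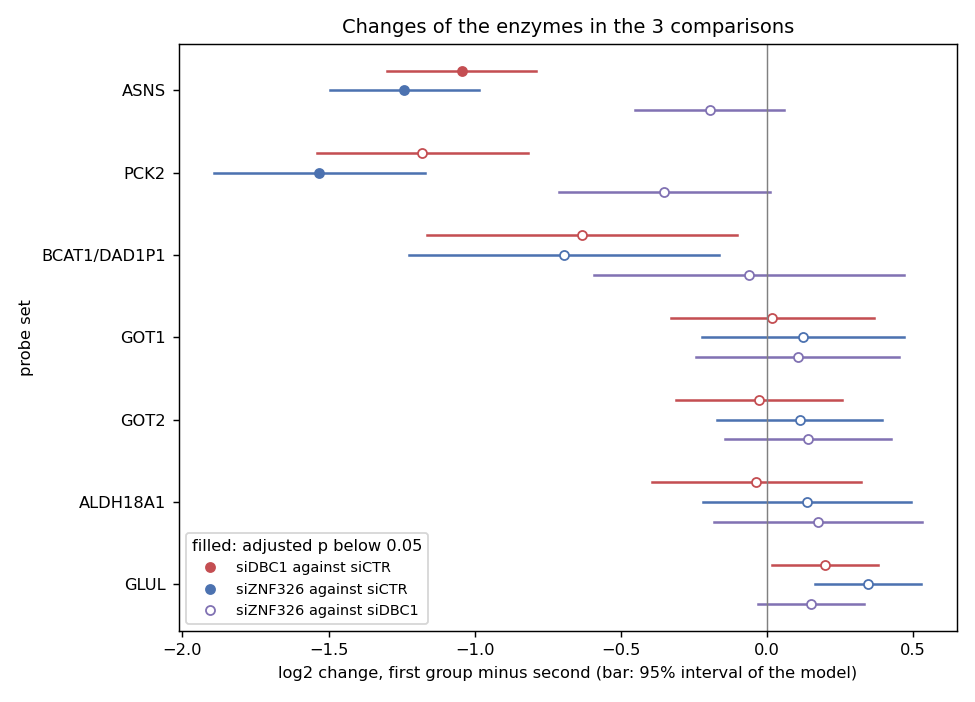
Log2 change of each gene and of BCAT1/DAD1P1 in the 3 comparisons, with 95% intervals from the limma fit; filled points passed an adjusted p of 0.05. The ASNS and PCK2 intervals against siCTR all lie below 0, and those of GOT1, GOT2 and ALDH18A1 span 0.

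The probe set shared by BCAT1, the cytosolic branched-chain aminotransferase, and DAD1P1 read 7.88, 8.04 and 8.31 in siCTR, 7.47, 6.99 and 7.88 in siDBC1 and 7.60, 7.28 and 7.27 in siZNF326. The siDBC1 and siZNF326 arrays were all below the siCTR arrays, siDBC1 replicate 3 only just, as were 3.66% and 5.27% of all probe sets. The difference was -0.63 in siDBC1 (95% interval -1.16 to -0.10, limma, unadjusted p = 0.0253, adjusted p = 0.732). In siZNF326 it was -0.69 (95% interval -1.22 to -0.16, limma, unadjusted p = 0.0169, adjusted p = 0.425). Neither passed. After quantile normalization the siZNF326 difference was -0.84 and passed (limma, adjusted p = 0.0185). Its spread within groups, an SD of 0.31, was wider than that of the 6 genes (0.072 to 0.20) and than the median of all probe sets (0.21). BCAT2, the mitochondrial isozyme, differed by -0.059 in siDBC1 (95% interval -0.31 to 0.19) and 0.057 in siZNF326 (95% interval -0.19 to 0.31), the latter turning negative under either rescaling.

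GOT1, the cytosolic aspartate aminotransferase, read 8.20, 8.31 and 8.39 in siCTR, 8.34, 8.08 and 8.53 in siDBC1 and 8.65, 8.40 and 8.21 in siZNF326. GOT2, its mitochondrial partner, read 10.52, 10.82 and 10.86 in siCTR, 10.77, 10.69 and 10.65 in siDBC1 and 11.01, 10.83 and 10.68 in siZNF326. In both genes the groups overlapped. For GOT1 the difference was 0.018 in siDBC1 (95% interval -0.33 to 0.36) and 0.12 in siZNF326 (95% interval -0.22 to 0.47). For GOT2 it was -0.028 (95% interval -0.31 to 0.26) and 0.11 (95% interval -0.17 to 0.39). These intervals leave out changes as large as those of ASNS and PCK2, and they do not show that GOT1 and GOT2 stayed the same.

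ALDH18A1, the first enzyme of proline synthesis from glutamate, read 9.06, 9.19 and 9.33 in siCTR, 9.15, 8.94 and 9.38 in siDBC1 and 9.59, 9.24 and 9.17 in siZNF326. The groups overlapped, with differences of -0.036 (95% interval -0.39 to 0.32) and 0.14 (95% interval -0.22 to 0.49). GOT1 and ALDH18A1 were both highest on siZNF326 replicate 1 and lowest on siDBC1 replicate 2, the arrays with the highest and the lowest median over all probe sets. With each array's median subtracted, the range over the 9 arrays narrowed from 0.57 to 0.30 for GOT1 and from 0.65 to 0.33 for ALDH18A1. It was 1.43 before and 1.42 after for ASNS, and 1.96 both times for PCK2. GOT1 and ALDH18A1 also had the most alike profiles of any pair among the 7 probe sets, with a root mean square difference of 0.048 after setting each on its siCTR mean.

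**Figure D4:**
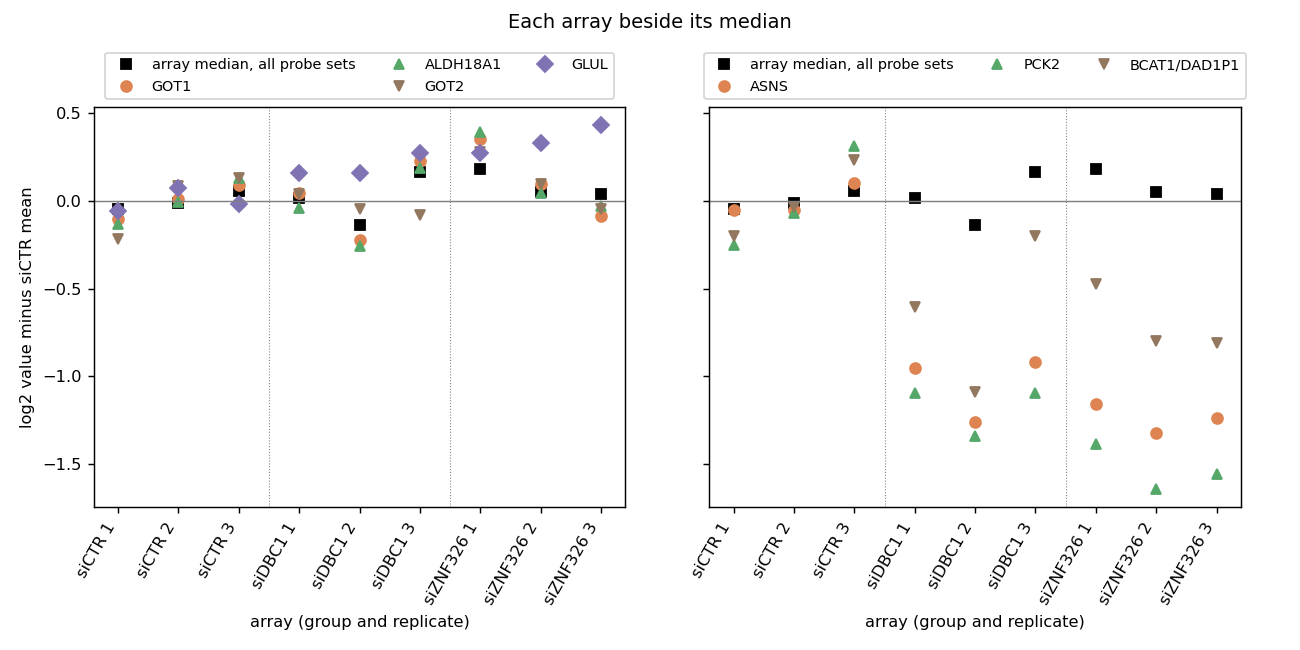
Values of each array minus the siCTR mean of the same probe set, on the log2 scale, beside the array's median over all probe sets (black squares). GOT1 and ALDH18A1 rise and fall with the squares, while ASNS and PCK2 on the siDBC1 and siZNF326 arrays lie far below them.

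GLUL, glutamine synthetase, read 7.12, 7.25 and 7.17 in siCTR, 7.34, 7.34 and 7.45 in siDBC1 and 7.45, 7.52 and 7.62 in siZNF326. Both siDBC1 and siZNF326 arrays lay above siCTR, which 5.18% of all probe sets did in siDBC1 and 12.9% in siZNF326. The difference was 0.20 ± 0.078 (SE) in siDBC1 (95% interval 0.015 to 0.38, limma, adjusted p = 0.783) and 0.35 ± 0.078 in siZNF326 (95% interval 0.17 to 0.53, limma, adjusted p = 0.223), or 1.15-fold and 1.27-fold. Neither passed. GLUL had the least spread within groups of the 6 genes, an SD of 0.072, and the siZNF326 difference was 0.19 after quantile normalization. After quantile normalization or array centring its unadjusted p (limma) was no longer under 0.05 in either group.

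The groups siZNF326 and siDBC1 were also compared with each other, and 0 of the 6 genes passed in either direction (limma), beside 0.00454% of all probe sets in each direction; the unadjusted p was under 0.05 for 0 of the 6, next to 2.43% lower and 4.88% higher of all probe sets. ASNS differed by -0.20 (95% interval -0.45 to 0.059, limma, adjusted p = 0.741) and PCK2 by -0.35 (95% interval -0.71 to 0.0090, limma, adjusted p = 0.685). PCK2 was lower on all 3 siZNF326 arrays than on all 3 siDBC1 arrays, as were 4.24% of all probe sets. GOT1, GOT2 and ALDH18A1 differed by 0.10, 0.14 and 0.17, GLUL by 0.15 and BCAT1/DAD1P1 by -0.061. GLUL was higher, just, on all 3 siZNF326 arrays than on all 3 siDBC1 arrays, as were 5.21% of all probe sets. After quantile normalization and after array centring, 2 of the 6 were lower at an unadjusted p (limma) under 0.05, and 0 passed. ASNS then differed by -0.30 and -0.27 (limma, adjusted p = 0.324 and 0.400) and PCK2 by -0.48 and -0.43 (0.258 and 0.376). Over the 7 settings and the 9 omissions of an array, the unadjusted count lower ran from 0 to 2. At the adjusted threshold, a stronger response of any of these genes to 1 of the siRNAs was not shown.

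ASNS and PCK2 had profiles like each other, with a root mean square difference of 0.21 on the log2 scale over the 9 arrays, each gene set on its siCTR mean. Among the 14426 other probe sets with a single gene symbol, the most alike to ASNS were CEBPG, a C/EBP factor that pairs with ATF4 (0.14), STC2, a secreted stanniocalcin (0.14), CBS, the enzyme that makes cystathionine (0.15), DDR2, a collagen receptor kinase (0.16), and DDIT4, an inhibitor of mTORC1 (0.17). The most alike to PCK2 were SLC7A5, a carrier of large neutral amino acids (0.15), DDR2 (0.19), CEBPG (0.22), DDIT3, the stress-induced C/EBP factor CHOP (0.25), and STC2 (0.27). Of these 7 genes, SLC7A5 differed in siZNF326 by -1.50 (limma, adjusted p = 0.0200), DDIT3 by -1.15 (0.0391) and CBS by -1.04 (0.0250), and these passed. Each of these calls held without siDBC1 replicate 2 or 3 and was lost on leaving out any of the other 7 arrays, with adjusted p over the 9 omissions of 0.0176 to 0.140 for SLC7A5, 0.0451 to 0.192 for DDIT3 and 0.0228 to 0.153 for CBS. With only the 2 groups compared they were also lost, at adjusted p of 0.0629, 0.0838 and 0.0700. In siDBC1 their differences were -0.96, -1.27 and -0.93 and missed the threshold, with adjusted p of 0.111, 0.0607 and 0.0874. After quantile normalization or array centring all 3 passed there. CEBPG, STC2, DDR2 and DDIT4 missed it in both groups, with siDBC1 differences between -1.25 and -0.93 and siZNF326 differences between -1.32 and -1.01. These 4 genes passed in both groups after quantile normalization or array centring, with adjusted p between 0.00186 (CEBPG in siZNF326) and 0.0396 (CEBPG in siDBC1). Likeness was how these genes were chosen, so their falling with ASNS and PCK2 is a description. The composite core was in the promoter windows of CEBPG and DDR2 and not in those of the other 5, beside 4.46% of all genes with a window.

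Other enzymes and carriers of the same pathways were listed, 36 in all, and 25 had a probe set of their own. PRODH and ASNSD1 had only shared ones. Promoter windows were found for 28 of the 36, of which 1, SLC25A11, held the composite core (3.57%). Of the 25, 0 passed in siDBC1, in siZNF326 or between them (limma). At an unadjusted p under 0.05 there were 0 lower and 2 higher in siDBC1, 0 in either direction in siZNF326, and 2 lower and 0 higher in siZNF326 against siDBC1. Over all probe sets the shares lower and higher were 2.55% and 3.63%, 2.52% and 6.13%, and 2.43% and 4.88%. Their median change was 0.01 in siDBC1, within -0.25 to 0.29, and 0.05 in siZNF326, within -0.36 to 0.41. The falls of ASNS and PCK2 lie outside both ranges. GAD1, PRODH2, ASPA, PCK1, ME3 and SLC25A18 were below the median of all 9 arrays, where a fall of that size might not show.

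SLC25A22, a mitochondrial glutamate carrier, gave the smallest p of the list in siDBC1. It read 7.30, 7.36 and 7.56 in siCTR, 7.77, 7.61 and 7.69 in siDBC1 and 7.33, 7.20 and 7.08 in siZNF326. The siDBC1 arrays lay above all others, by 0.28 over siCTR (95% interval 0.045 to 0.52, limma, adjusted p = 0.732). Of all probe sets, 5.18% were higher on all siDBC1 arrays than in siCTR, and 4.24% lower on all siZNF326 arrays than in siDBC1. Between siZNF326 and siDBC1 it differed by -0.48 ± 0.10 (SE, 95% interval -0.72 to -0.25, unadjusted p = 0.00160 and adjusted p = 0.393, limma), which did not pass. ME2, a mitochondrial malic enzyme, gave the smallest p in siZNF326, with a difference of -0.36 (95% interval -0.73 to 0.013, limma, adjusted p = 0.589), all 3 arrays lying below siCTR, as in 5.27% of all probe sets. After quantile normalization ME2 differed by -0.49 and passed (limma, adjusted p = 0.0367).

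Next by p in siDBC1 were BCKDK, the kinase that restrains branched-chain ketoacid breakdown (0.19, adjusted p = 0.793), PYCR3, a proline-making isozyme (0.16, 0.892), and PC, pyruvate carboxylase (0.12, 0.935). Next in siZNF326 were SLC25A11, the oxoglutarate carrier (0.34, adjusted p = 0.598), SLC25A22 (-0.20, 0.633) and OAT, ornithine aminotransferase (0.41, 0.649). None of these passed. OAT, MDH1 and ME1, 3 of the 25, were higher on all 3 siZNF326 arrays than in siCTR, as were 12.9% of all probe sets. GPT, the cytosolic partner of GPT2, differed by 0.10 in siDBC1 (95% interval -0.18 to 0.38) and -0.035 in siZNF326 (95% interval -0.32 to 0.25). PYCR3 differed by 0.078 in siZNF326 (95% interval -0.12 to 0.27), turning negative under either rescaling.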

How the data were processed

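The deposited values are log2 expression values, 1 per probe set and array, which the authors made with RMA, per the submitters' processing notes; the software version was not given in the sources used here. The array annotation refers to hg18, and promoter sequences came from RefSeq on GRCh38.p14. The annotation names a single gene for 14432 of the 22011 probe sets, more than 1 gene for 2408 and no gene for 5171. Background and detection values were not used here, and precision is limited by having 3 arrays a group. The 3 groups were fitted on all probe sets with limma 3.58.1 in R 4.3.3 (lmFit, eBayes), tested on simulated data, with two-sided p-values adjusted by Benjamini and Hochberg within a comparison and a threshold of 0.05. The p-values rest on the spread between arrays within groups, pooled over the 3 groups and drawn towards that of the other probe sets.

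The members, lists and tests were chosen with earlier results of these data known. Named were all members; isozymes, any called gene and the 4 smallest p per siCTR comparison among the other enzymes; the 5 genes most like each called member; the siRNA targets; and markers of HEK293, blood, fibroblast and liver cells. The alternatives were 7 settings and leaving out each array.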

Additional observations from a re-analysis of the deposited data

How the results depend on the processing

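The log2 differences of ASNS and PCK2 against siCTR kept their direction under all 7 settings and all 9 omissions of an array, while their calls did not. Genes of the 6 called lower in siDBC1 numbered 1, became 2 after quantile normalization or array centring, and 0 with the replicate block, with only the 2 groups compared, with an intensity trend and on each omission of an array (0 to 0). In siZNF326 the 2 became 0 with the replicate block, 1 with only the 2 groups and 0 to 2 on omitting an array. At an unadjusted p under 0.05, 2 were lower in each of these fits and 0 or 1 higher. Probe sets called lower and higher numbered 6 and 2 in siDBC1: 52 and 17 with quantile normalization, 36 and 10 with centring, 0 and 0 with the replicate block (621 and 739 unadjusted) or only 2 groups (454 and 646), 2 lower with the trend, and 0 to 4 and 0 to 1 on omitting an array. They numbered 13 and 20 in siZNF326: 107 and 89 with quantile normalization, 62 and 57 with centring, 30 and 38 without dim probe sets, 23 lower with 1-symbol probe sets alone, 1 and 0 with the block, 3 and 2 with only 2 groups, and 1 to 26 and 0 to 38 on omitting an array, the highest without siDBC1 replicate 2. Between siZNF326 and siDBC1 they numbered 1 and 1: 10 and 18 with quantile normalization, 5 and 4 with centring, 2 and 2 with 1-symbol probe sets, 0 and 0 with the block (508 and 1261 unadjusted) or only 2 groups (417 and 701), and 0 to 0 and 0 to 1 on omitting an array. Of the other enzymes, 1 (ME2) was called lower in siZNF326 with quantile normalization. Their median in siZNF326 moved to -0.063 with quantile normalization and -0.043 with centring. Between siZNF326 and siDBC1 it moved to -0.031, -0.070 and, without dim probe sets, 0.12, with -0.042 to 0.030 on omitting an array. The cause was not tested.

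Signs turned with quantile normalization for PCK1 in siDBC1 (0.00059), PYCR3 (-0.062) and BCAT2 (-0.064) in siZNF326 and GOT1 between siZNF326 and siDBC1 (-0.016), and with centring for PYCR3 (-0.014), PCK1 (-0.0029) and BCAT2 (-0.035) in siZNF326. On omitting an array the siDBC1 differences ranged from -0.087 to 0.14 for GOT1, -0.14 to 0.037 for GOT2, -0.15 to 0.073 for ALDH18A1, -0.021 to 0.022 for PCK1 and -0.13 to 0.032 for BCAT2. In siZNF326 they ranged from -0.10 to 0.053 for GPT and -0.018 to 0.15 for BCAT2, and between siZNF326 and siDBC1 from -0.014 to 0.21 for GOT1 and -0.29 to 0.15 for BCAT1/DAD1P1.

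Whether the replicate numbers pair the samples was not settled. Deviations of same-numbered arrays correlated at 0.024, 0.19 and 0.25 (siDBC1 with siCTR), -0.12, 0.096 and -0.18 (siZNF326 with siCTR) and -0.11, 0.40 and -0.30 (siZNF326 with siDBC1). Those of differently numbered arrays ran from -0.26 to 0.086, -0.13 to 0.24 and -0.57 to 0.61 in the same order. With 3 arrays a group these values cannot decide it. With the replicate block the adjusted p (limma) was 0.103 for ASNS and CCAR2 in siDBC1. In siZNF326 it was 0.0980 for ASNS, PCK2, SLC7A5 and DDIT3 and 0.131 for CBS. Array weights could not be fitted and were not run. Levels near background were not marked in these values, which limits PCK1 and other dim genes.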

Other observations

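Values that repeat exactly between arrays were common in the table: 41.4% of all probe sets had the same value on 2 or more arrays, among them 15 of the 25 other enzymes. PCK2 read 7.05 on siDBC1 replicates 1 and 3, so it held 8 distinct values over the 9 arrays, and ASNS held 9. CCAR2 read 7.67 on siCTR replicates 1 and 2 and held 8. The p-values rest on the spread within groups, and the part of such repeats in that spread was not tested. ASPA, which breaks down acetylaspartate, was below the lower quartile on all 9 arrays, from 1.27 to 1.67.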
